A study of Homo sapiens with 15 samples.

Results

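The comparison of the mid dose (MD) with clean air (CA) covers 6 of the 15 arrays of the series, 3 per group, and all 135750 transcript clusters (probe sets that each stand for a gene or transcript) of the Affymetrix Clariom D array. A549 cells, an established human lung adenocarcinoma line, grew on membranes at an air-liquid interface. MD cells received vapour of dimethylamine, a volatile alkaline amine, at 41.1 ppm, and CA cells received the same airflow at 0 ppm, in 3 exposures of 60 min with 23 h of recovery each, over 72 h. The remaining groups of 3 arrays were LD at 14.9 ppm, HD at 81.7 ppm and NEC, non-exposed control cells without flow. RNA of 2 wells was pooled for each array. By the labels exposure plate 5 held all MD arrays, and plates 1, 5 and 6 held 1 array each of CA and of NEC. The concentration and the plate therefore cannot be fully told apart, and values against the CA array of plate 5 are given beside the pooled ones. The methods of the study call the 3 replicates biological, but the sources used here do not say whether the pools came from separate cultures, and p-values reflect how much these pools vary. A549 is a single tumour line with its own background, and its RNA in bulk does not tell fewer cells of a kind from less RNA per cell.

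Volatile amines dissolve in the liquid over the cells and make it alkaline. A549 cells keep features of an alveolar type II cell and also make secreted proteins that are best known from the liver, such as fibrinogen. Cells that lack sterol in their membranes activate the SREBP transcription factors, which turn on the genes of cholesterol synthesis, and damaged or stressed cells can activate p53, which turns on CDKN1A and MDM2.

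The arrays were alike in median signal and in correlation. The median log2 signal was 4.48 to 4.52 in MD and 4.51 to 4.55 in CA, and arrays correlated at 0.980 to 0.984 within MD, 0.975 to 0.980 within CA and 0.975 to 0.982 between them. The CA array of plate 1 had the lowest quality weight of all 15 arrays, 0.708, and MD replicate 2 the highest, 1.631. Bright protein-coding clusters averaged 10.63, 10.84 and 11.05 in MD replicates 1 to 3. They averaged 10.66, 10.93 and 10.98 in the CA arrays of plates 1, 5 and 6. A low CA array of plate 1 or a high MD replicate 3 in single genes below is therefore also seen across bright genes as a whole. The median of the 612 negative control clusters in CA was 4.70 on the log2 scale, and differences near or below it are of uncertain size. Of the 14 measured A549 and lung epithelial markers, KRT8 lay at 17.77 in CA and 17.85 in MD and AKR1C1 at the ceiling of the scale in both groups, while NKX2-1 and SFTPB lay below the negative controls. CDH1, the epithelial cadherin, was the marker of that list with p below 0.05, at 9.04, 9.84 and 9.17 in CA and 8.20, 8.41 and 8.71 in MD.

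With limma, 0 of 135750 clusters passed an adjusted p of 0.05 between MD and CA (0.0% called), the smallest adjusted p being 0.0807. At an unadjusted p below 0.05, 3809 clusters were higher (2.81%) and 4569 lower (3.37%). Differences over 2-fold at that unadjusted p, which the study took as its criteria, were found in 299 clusters with a higher signal (0.22%) and 414 with a lower one (0.305%). Of the 713, 561 carried no gene symbol, and 223 of those had a mean below the negative controls. Among the 17622 protein-coding genes, 38 met the criteria upwards (0.216%) and 51 downwards (0.289%), 511 were higher at p below 0.05 (2.9%) and 508 lower (2.88%). The MD and CA arrays did not overlap in 1028 coding genes with higher MD values (5.83%) and 1070 with lower ones (6.07%). These shares over all coding genes are the background for the counts of each list below. No gene below is called after adjustment, and all genes are described by their values.

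Fibronectin (FN1), the glycoprotein that links cells to the extracellular matrix, showed the largest difference of any coding gene between MD and CA. Its signal was 13.94, 13.07 and 13.19 in the CA arrays of plates 1, 5 and 6, and 10.51, 11.28 and 11.36 in the MD arrays. Every MD array lay below every CA array. The difference was −2.35 (SE 0.34), a 5.08-fold lower signal, with an adjusted p of 0.131 in limma, and −2.02 against the CA array of plate 5. The gene lies on chromosome 2 from 215360865 to 215436068.

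The gene with the smallest p was ADH6, a class V alcohol dehydrogenase. It read 11.53, 11.66 and 11.17 in CA and 9.42, 9.76 and 9.33 in MD, a difference of −1.95 (SE 0.25, 3.87-fold lower, limma adjusted p = 0.0807). The groups did not overlap, and against the CA array of plate 5 the difference was −2.15. Alcohol dehydrogenases oxidise alcohols to aldehydes with NAD, and the human genes stand side by side on chromosome 4, from ADH5 at 99070978 to the end of ADH7 at 99435342. Of the 7 measured ADH genes of this stretch, ADH6, ADH1C, ADH1B and ADH4 met the criteria of the study, all lower. ADH1C read 9.26, 8.98 and 9.24 in CA and 7.38, 7.03 and 7.83 in MD (−1.74, SE 0.36), and ADH1B 7.71, 8.47 and 8.34 against 6.22, 6.77 and 7.15 (−1.46, SE 0.36). ADH4 read 6.36, 6.76 and 7.45 in CA and 5.38, 6.20 and 5.08 in MD (−1.30, SE 0.45). All 3 of these genes had non-overlapping groups.

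ADH5, the class III enzyme that acts on glutathione-bound formaldehyde, differed by less, at 11.56, 11.83 and 12.13 in CA and 11.23, 11.38 and 11.56 in MD (−0.45, SE 0.26). ADH1A (−0.37, SE 0.36, −0.69 without the CA array of plate 1 and −0.16 without that of plate 6) overlapped between the groups, and ADH7 lay below the negative controls. ADH5 and ADH1A are outside the naming rule and complete the gene cluster. Over the whole list of 15 alcohol and aldehyde dehydrogenases, 4 members were lower and 1 was higher at p below 0.05, and the median was −0.37, beside a median of 0.00 for all coding genes. The member above was ALDH3A1 (0.45, SE 0.21), an aldehyde dehydrogenase, and ALDH1A1 sat at the ceiling, where no difference can be read. The list median was −0.44 against the CA array of plate 5 and −0.005 against the NEC array of that plate. Over all coding genes, 2.88% were lower and 2.9% higher at p below 0.05.

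**Figure D1:**
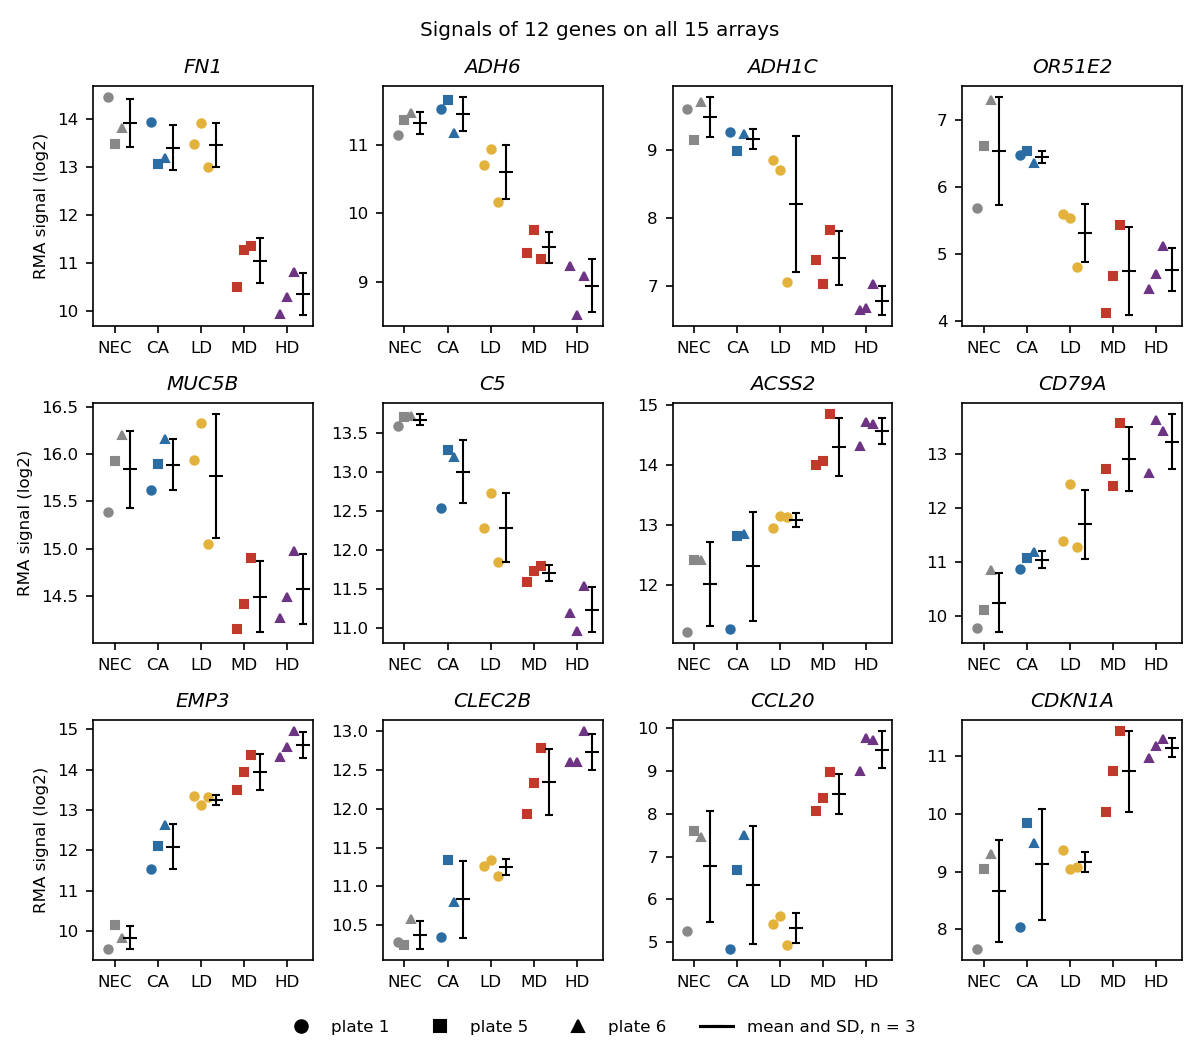
RMA signals (log2) of 12 genes on all 15 arrays, 1 panel per gene, with 1 point per array, the symbol giving the exposure plate and black bars the mean and SD of 3 arrays. FN1, ADH6, ADH1C, OR51E2, MUC5B and C5 lay lower in MD than in CA, and ACSS2, CD79A, EMP3, CLEC2B, CCL20 and CDKN1A higher, with no overlap in any of the 12. In each of the genes that lay higher the CA array of plate 1 was the lowest of the CA arrays, by the widest margin in ACSS2, CCL20 and CDKN1A.

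Genes of complement, coagulation and the acute phase were lower wherever they reached p below 0.05. These genes encode plasma proteins that the liver secretes to kill microbes and to clot blood. Of 29 listed genes 27 were measured, 10 were lower and 0 higher at p below 0.05, 7 of them by more than 2-fold, and 11 had non-overlapping groups with MD below CA. The other 17 did not reach p below 0.05, and 4 of the 27 lay above 0. Among all coding genes the shares were 2.88% lower at p below 0.05, 0.289% lower by more than 2-fold, and 6.07% non-overlapping with MD below CA. The list median was −0.55, beside 0.00 for all coding genes, −0.59 against the CA array of plate 5 and −0.33 without MD replicate 1.

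Complement C5, the precursor of the membrane attack complex, read 12.54, 13.28 and 13.19 in CA and 11.59, 11.73 and 11.79 in MD (−1.30, SE 0.25, limma adjusted p = 0.472). C4BPA, a chain of the complement inhibitor C4b-binding protein, read 11.70, 11.59 and 11.25 against 10.06, 10.42 and 10.18 (−1.30, SE 0.26, limma adjusted p = 0.472). In both genes every MD array lay below every CA array. Coagulation factor V (F5) differed by −1.01 (SE 0.26) and the complement protease C1S by −1.07 (SE 0.28). Factor B (CFB) differed by −1.02 (SE 0.32), factor I (CFI), which cleaves C3b, by −0.66 (SE 0.22) and C3, the central complement component, by −0.76 (SE 0.32). CFB, CFI and C3, like the fibrinogen chains, lie outside the naming rule and were picked with their values in view.

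The fibrinogen chains FGB, FGA and FGG, which form the clot, lie together on chromosome 4 between 154562980 and 154612656. FGB read 17.96, 18.68 and 18.63 in CA and 17.32, 17.43 and 17.43 in MD (−1.03, SE 0.30). FGG read 18.93, 19.54 and 19.91 against 18.46, 18.30 and 18.45 (−1.06, SE 0.31), and FGA 19.40, 19.93 and 19.91 against 18.85, 18.72 and 18.98 (−0.90, SE 0.26). The groups were apart for each chain, and FGA and FGG read up to 19.93 and 19.91 in CA, at the ceiling of the scale, where differences are compressed.

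CRP, SERPIND1 and ORM1, further members of the list, lay below the negative controls in both groups. Among 20 measured liver-type plasma carriers and inter-alpha-trypsin chains, 5 were lower and 1 was higher at p below 0.05, and the lower count was 2 without the CA array of plate 6 and 3 without that of plate 5 or MD replicate 1. The background was 2.88% lower and 2.9% higher. APOH, which binds phospholipids, read 13.80, 13.75 and 13.76 in CA and 12.03, 12.68 and 12.84 in MD (−1.25, SE 0.28). Vitronectin (VTN), an adhesive plasma protein, differed by −1.30 (SE 0.33). ITIH2, a heavy chain of inter-alpha-trypsin inhibitor, read 9.76, 11.91 and 11.96 in CA, and the CA array of plate 1 lay within the 9.41, 9.85 and 10.14 of MD. Its difference was −1.41 (SE 0.47), −2.14 without the CA array of plate 1 and −2.11 against the CA array of plate 5. The member above was APOB (0.95), which stayed below the negative controls in both groups, so its size is uncertain.

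**Figure D2:**
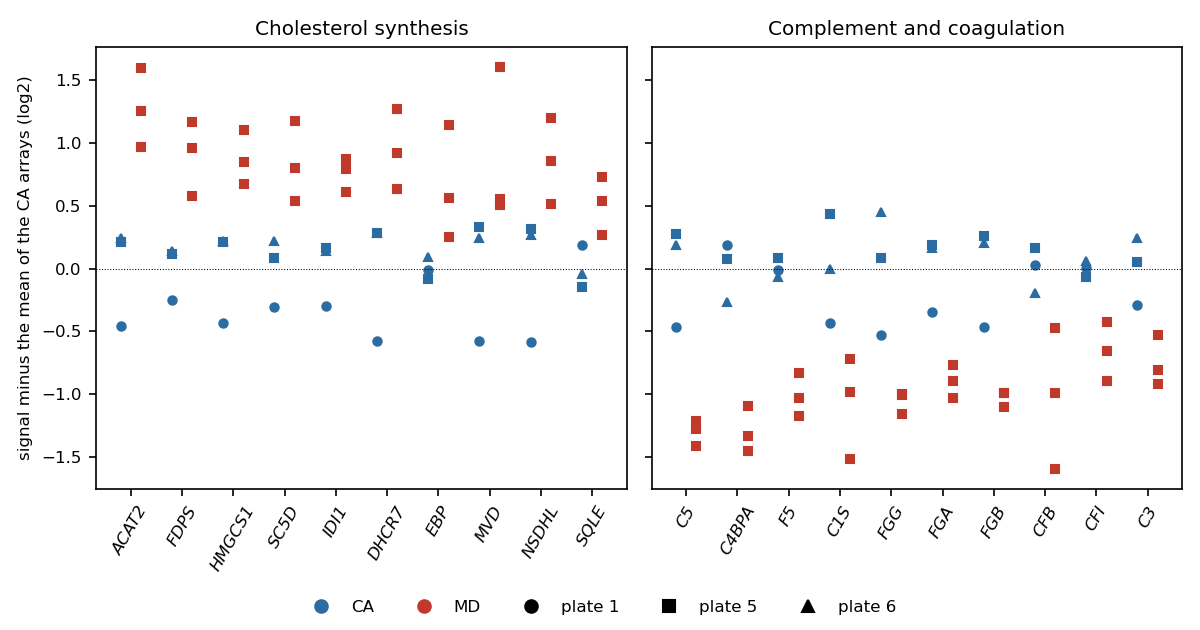
Signal of each CA and MD array minus the mean of the 3 CA arrays (log2, vertical axis) for 10 genes of cholesterol synthesis (left) and 10 genes of complement and coagulation (right), all with p below 0.05; colours give the group and symbols the exposure plate. The genes were picked for this p in the same comparison, so the MD arrays lying above all CA arrays on the left and below them on the right follows largely from the choice. The other 7 of 17 measured cholesterol genes and 17 of 27 complement and coagulation genes are not drawn. The CA array of plate 1 lies below the other CA arrays for most genes on both sides.

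Genes of cholesterol synthesis were higher wherever they reached p below 0.05. The pathway builds cholesterol from acetyl-CoA through mevalonate, farnesyl diphosphate and squalene. Of 20 listed genes 17 were measured, 10 were higher and 0 lower at p below 0.05, 1 of them by more than 2-fold, and 13 had non-overlapping groups with MD above CA. Among all coding genes these upward shares were 2.9%, 0.216% and 5.83%. With the exposure plate as a replicate block 7 were higher at p below 0.05, 6 of them among the 10, and without MD replicate 3 the count was 6. The list median was 0.65, beside 0.00 for all coding genes, and 0.65 also against the CA array of plate 5.

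At the entry of the pathway, ACAT2, which condenses acetyl-CoA, read 11.98, 12.65 and 12.68 in CA and 13.40, 13.69 and 14.03 in MD (1.27, SE 0.29, 2.41-fold higher, limma adjusted p = 0.581). HMGCS1, the next enzyme, read 16.50, 17.14 and 17.15 against 17.60, 17.78 and 18.03 (0.88, SE 0.26). In the middle of the pathway, farnesyl diphosphate synthase (FDPS) read 13.65, 14.02 and 14.04 against 14.48, 14.86 and 15.07 (0.90, SE 0.24). The groups did not overlap in these genes, and the MD array of replicate 3 was the highest in each. Of the sterol enzymes, NSDHL read 10.83, 11.73 and 11.68 in CA and 11.93, 12.27 and 12.61 in MD (0.86, SE 0.27, and 0.56 without the CA array of plate 1). The isomerase IDI1 (0.76, SE 0.25), the desaturase SC5D (0.84, SE 0.27), DHCR7, the last enzyme of the route (0.94, SE 0.35), EBP (0.65, SE 0.25, 0.41 without MD replicate 3), MVD (0.89, SE 0.37, 0.53 without that array) and the epoxidase SQLE (0.51, SE 0.24) were also higher at p below 0.05, and were picked with their values in view. MSMO1 sat at 19.73 to 19.78 in CA, near the ceiling, where no difference can be read.

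The genes that sense or move sterol were less uniform. Of 12 measured, 2 were higher and 1 was lower at p below 0.05, beside 2.9% and 2.88% of all coding genes. The median was 0.11, and 0.33 without MD replicate 1. NPC1, which exports cholesterol from lysosomes, read 11.60, 11.83 and 11.97 in CA and 12.51, 12.77 and 13.38 in MD (1.09, SE 0.28, 2.13-fold higher). INSIG1, which holds SREBP in the endoplasmic reticulum and is itself an SREBP target, differed by 0.78 (SE 0.26, and 0.48 without MD replicate 3). The efflux pump ABCA1 differed by −0.59 (SE 0.24) at the level of the negative controls. The transcripts of the SREBP factors overlapped between the groups, with SREBF2 at −0.48 (SE 0.27, and −0.65 to −0.29 with 1 array left out, the ends being without the CA arrays of plates 1 and 6) and SREBF1 at −0.17 (SE 0.27), both picked with their values in view. ACSS2, which makes acetyl-CoA from acetate, read 11.26, 12.81 and 12.85 in CA and 13.99, 14.06 and 14.85 in MD. Its difference of 2.00 (SE 0.40, 3.99-fold higher, limma adjusted p = 0.472) was the second largest upward one of the coding genes named by rule, and was 1.49 against the CA array of plate 5.

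Promoters of 4 genes that met p below 0.05 are shown, from the lists with the highest and the lowest median in the plot of list members. All 4 hold the motif that is marked, so they do not stand for the other members of their lists. Each sequence holds the 250 bases before the RefSeq start (GRCh38.p14), written 5′ to 3′ along the gene, with motif matches on either strand in capitals. For the cholesterol genes the capitals mark CCAAT or its complement ATTGG, the site of the factor NF-Y, which works beside SREBP at many sterol genes. HMGCS1 lies on the minus strand at chr5:43313413-43313662 and FDPS on the plus strand at chr1:155308616-155308865.
HMGCS1: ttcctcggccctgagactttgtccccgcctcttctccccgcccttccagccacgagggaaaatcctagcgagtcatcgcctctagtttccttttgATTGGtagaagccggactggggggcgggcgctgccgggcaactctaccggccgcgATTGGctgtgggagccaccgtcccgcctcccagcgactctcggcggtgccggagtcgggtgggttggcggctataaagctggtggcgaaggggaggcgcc
FDPS: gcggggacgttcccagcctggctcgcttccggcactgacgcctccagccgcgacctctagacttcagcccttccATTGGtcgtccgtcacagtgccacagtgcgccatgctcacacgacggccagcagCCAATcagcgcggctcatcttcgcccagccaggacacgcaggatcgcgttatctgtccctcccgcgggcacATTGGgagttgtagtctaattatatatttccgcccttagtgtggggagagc

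CCAAT was present in 12 of the 15 cholesterol synthesis promoters in the RefSeq table (80.0%) and in 34.6% of the 14287 coding promoters. It was also in 9 of 13 promoters of the alcohol and aldehyde dehydrogenases (69.2%), a list with a negative median, in 8 of 17 of the p53 targets (47.1%) and in 8 of 19 of complement and coagulation (42.1%). HMGCS1 holds 2 matches and FDPS 3. A sterol regulatory element written as TCACNCCAC was in 0 of the 15 and in 0.889% of all coding promoters, which says only that these letters are not in this window. For the complement and coagulation genes the capitals mark GTTAAT or its complement ATTAAC, the core of the site of the liver factor HNF1. FGB lies on the plus strand at chr4:154562730-154562979 and C4BPA on the plus strand at chr1:207103983-207104232, and each holds 1 match.
FGB: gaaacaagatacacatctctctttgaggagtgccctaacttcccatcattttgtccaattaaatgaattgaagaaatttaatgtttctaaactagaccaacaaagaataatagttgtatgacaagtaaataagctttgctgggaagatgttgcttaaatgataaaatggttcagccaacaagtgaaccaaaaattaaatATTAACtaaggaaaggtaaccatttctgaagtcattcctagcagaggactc
C4BPA: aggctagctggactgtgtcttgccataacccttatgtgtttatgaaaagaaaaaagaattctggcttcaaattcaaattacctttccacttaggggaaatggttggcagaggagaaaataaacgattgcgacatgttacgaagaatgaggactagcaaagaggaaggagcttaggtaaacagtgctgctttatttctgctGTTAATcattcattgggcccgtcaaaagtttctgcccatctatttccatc

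GTTAAT was in 5 of 19 promoters of that list (26.3%), those of CFI, C4BPA, F2, FGA and FGB, and in 4.89% of all coding promoters. C5, F5, CFB and FGG, also lower at p below 0.05, held no match in this window. Of the genes with a match F2, prothrombin, named for it, differed by −0.47 (SE 0.36) with overlapping groups. Its difference was −0.97 without the CA array of plate 1 and −0.06 without that of plate 6. Among 13 promoters of the alcohol and aldehyde dehydrogenases, ADH4 alone held it (7.69%). A match describes the sequence, and binding was not measured.

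Of 22 measured p53 targets, 6 were higher and 0 lower at p below 0.05, with a median of 0.37, beside 2.9% higher and 2.88% lower of all coding genes. With the exposure plate as a replicate block 3 were higher, and without the CA array of plate 1 also 3. The median was 0.21 without that array and 0.17 without MD replicate 3. CDKN1A, the p21 inhibitor of cyclin-dependent kinases, read 8.04, 9.84 and 9.49 in CA and 10.04, 10.74 and 11.44 in MD. The groups did not overlap, but the highest CA array lay close to the lowest MD array. The difference was 1.62 (SE 0.46, 3.07-fold higher), and 1.07 without the CA array of plate 1. MDM2, the ubiquitin ligase of p53, read 10.86, 12.02 and 12.07 against 12.61, 12.57 and 12.83 (1.02, SE 0.33, and 0.62 without the CA array of plate 1). FAS, a death receptor, read 6.97, 7.32 and 7.25 against 7.84, 7.97 and 8.80 (1.02, SE 0.24), and was 0.91 without that array. The DNA damage gene GADD45A differed by 0.86 (SE 0.27), the BH3-only protein PMAIP1 by 0.91 (SE 0.32, 0.56 without the CA array of plate 1) and TP53INP1, chosen after its values were seen, by 0.68 (SE 0.27). The list median was 0.23 against the CA array of plate 5 and 0.45 against the NEC array of that plate.

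Replication-dependent histone genes were higher in 9 of 46 measured members and lower in 0 at p below 0.05, with a median of 0.42. Of the 9, H2BC10 and H4C13 averaged below the negative controls in both groups, and H2BC7 and H3C1 did so in CA, so their differences are of uncertain size. With the exposure plate as a replicate block 3 were higher (H1-3, H2AC11 and H3C6) and 1 was lower. Without the CA array of plate 1 the count was 2 (H1-3 and H2AC11), and without MD replicate 3 it was 3. The median was 0.17 and 0.20 without these arrays in turn, and 0.25 against the CA array of plate 5. H2AC11 read 7.01, 8.27 and 8.45 in CA and 8.80, 8.89 and 9.76 in MD (1.24, SE 0.36, and 0.79 without the CA array of plate 1), and the linker histone H1-3 read 6.62, 7.45 and 7.11 against 8.03, 7.83 and 8.28 (0.98, SE 0.28). Both had non-overlapping groups. Genes of DNA replication and S phase, the stage in which histone genes are transcribed, had 1 lower and 0 higher of 28, with a median of 0.01, and the lower one, MCM10, lay below the negative controls. All coding genes had 2.9% higher and 2.88% lower at p below 0.05, so 1 of 28 is near the background. Of 28 genes of G2 and mitosis, 3 were higher and 0 lower (median 0.13), 0 of which kept p below 0.05 with the plate as a replicate block. They were the checkpoint kinases BUB1B (0.62, SE 0.23) and BUB1 (0.73, SE 0.33, 0.42 without the CA array of plate 1 and −0.001 against that of plate 5) and the kinetochore protein NUF2 (0.82, SE 0.36). NUF2 was 0.23 without the CA array of plate 1, which read 5.37 beside 7.10 and 7.22 on the other plates.

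**Figure D3:**
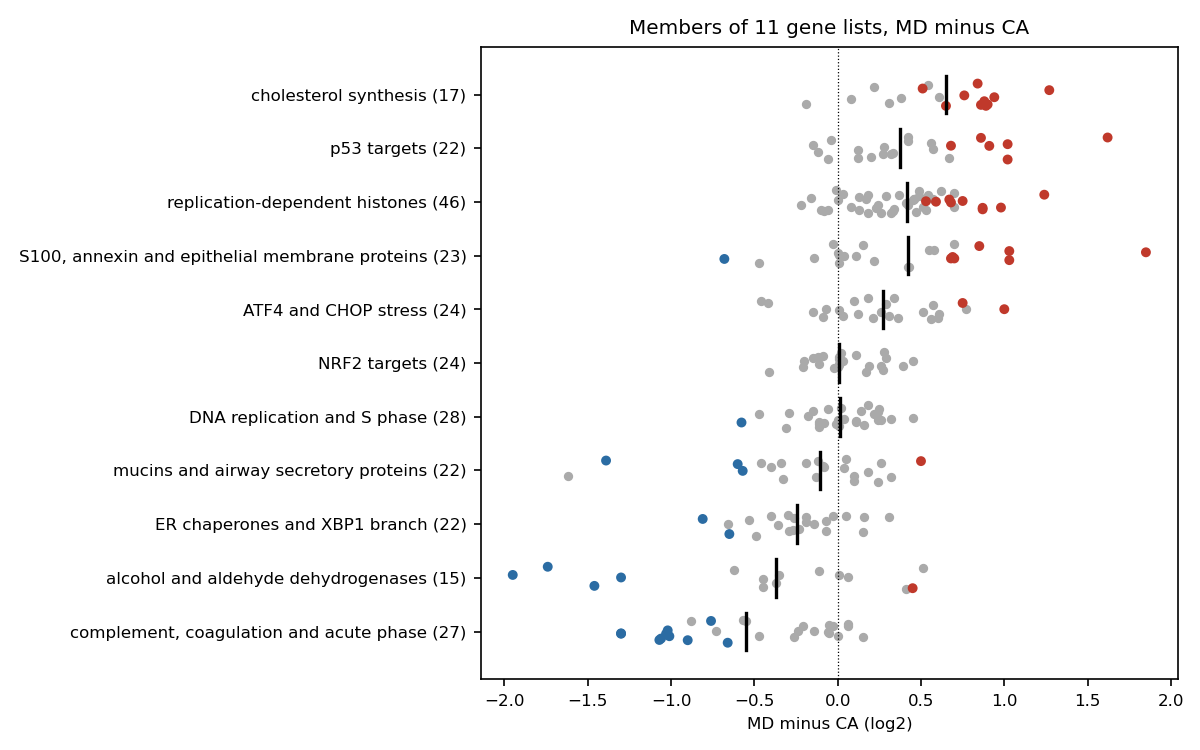
MD minus CA (log2, horizontal axis) of each measured member of 11 gene lists, with the number measured in brackets; red and blue points had a limma p below 0.05, grey points did not, and black bars are list medians. The medians run from −0.55 for complement, coagulation and acute phase to 0.65 for cholesterol synthesis.

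S100 calcium-binding proteins, annexins, which bind membrane phospholipids, and epithelial membrane proteins were higher in 7 of 23 measured members and lower in 1 at p below 0.05 (median 0.42). The higher count was 4 with the exposure plate as a replicate block, 4 without MD replicate 3 and 4 without the CA array of plate 1. The background over all coding genes was 2.9% higher and 2.88% lower. EMP3, a tetraspan membrane protein, read 11.53, 12.11 and 12.64 in CA and 13.50, 13.94 and 14.37 in MD. Its difference of 1.85 (SE 0.29, 3.60-fold higher, limma adjusted p = 0.261) was 1.83 against the CA array of plate 5. EMP3 averaged 9.84 in NEC, below every CA array, and MD minus NEC was 4.10. The annexins ANXA10 (1.03, SE 0.28) and ANXA3 (1.03, SE 0.29) exceeded 2-fold. ANXA10 read 10.35, 10.35 and 10.24 in CA and 11, 11.23 and 11.79 in MD, with no overlap, whereas in ANXA3 the CA array of plate 1 (8.76) lay above the lowest MD array (8.61). S100A11 differed by 0.70 (SE 0.22) and S100A6 by 0.69 (SE 0.27, 0.37 without MD replicate 3). The member below was EMP2 (−0.68, SE 0.22), chosen after its values were seen. ANXA1 and ANXA2 sat at the ceiling. The list median was 0.81 with NEC in place of CA, 0.11 without MD replicate 3, 0.22 without MD replicate 2 and 0.25 without the CA array of plate 1.

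Of the protease inhibitors and plasminogen activators, 3 of 17 measured were higher, each by more than 2-fold, and 0 lower at p below 0.05. SERPINE2, an inhibitor of thrombin and plasminogen activators, read 9.69, 10.07 and 10.71 in CA and 11.12, 11.53 and 11.93 in MD (1.37, SE 0.30). SPINK1, a trypsin inhibitor, read 5.85, 6.04 and 5.79 against 7.19, 6.79 and 7.66 (1.32, SE 0.30). TFPI2, an inhibitor of plasmin and tissue factor complexes, read 12.95, 13.91 and 14.45 against 14.93, 14.93 and 15.32 (1.29, SE 0.45). The groups did not overlap in any of the 3. The other 14 members, among them PLAU and PLAUR, did not reach p below 0.05, and the list median was 0.04. Among all coding genes 2.9% were higher at p below 0.05 and 0.216% also by more than 2-fold.

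Single genes named by rule for a higher signal had varied roles. CCL20, a chemokine that attracts dendritic cells and lymphocytes, read 4.83, 6.68 and 7.50 in CA and 8.06, 8.37 and 8.97 in MD. The CA values were widely spread, from the level of the negative controls upwards. The difference of 2.12 (SE 0.60, 4.36-fold higher) was the largest upward one of the coding genes, and was 1.37 without the CA array of plate 1. CD79A, known as a chain of the B cell receptor, read 10.86, 11.07 and 11.18 against 12.73, 12.42 and 13.57 (1.87, SE 0.37, 3.65-fold higher). Of 14 measured leukocyte markers 8 averaged above the negative controls over all 15 arrays. The B cell marker MS4A1 and the T cell marker CD3D lay below them. Over the 14, 1 was higher and 1 lower at p below 0.05, with mean levels of 5.46 to 5.84 in MD and 5.59 to 5.67 in CA. CLEC2B, a lectin-like ligand, read 10.35, 11.34 and 10.80 against 11.93, 12.33 and 12.78 (1.52, SE 0.26). SLCO4C1, an organic anion transporter, differed by 1.87 (SE 0.53), the glycolytic enzyme ALDOC by 1.32 (SE 0.34) and the calpain CAPN8 by 1.29 (SE 0.33). PRM2, a sperm protamine, read 3.89, 5.57 and 5.57 in CA and 6.07, 6.31 and 6.51 in MD, so its 1.29 (SE 0.39) rests on low signals and was 0.73 without the CA array of plate 1.

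Among 19 measured genes of ERK feedback and ligands of the EGF receptor, 3 were higher and 0 lower at p below 0.05 (median 0.15). With the plate as a replicate block 1 was higher, and without MD replicate 3 also 1. The share over all coding genes was 2.9% higher. The ligand EREG read 7.63, 8.06 and 8.17 in CA and 8.71, 9.30 and 9.71 in MD (1.29, SE 0.35), and the ligand HBEGF differed by 0.47 (SE 0.20). DUSP6, the phosphatase of ERK, read 7.05, 8.95 and 8.74 against 9.22, 9.61 and 10.00 (1.37, SE 0.49). Without the CA array of plate 1 its difference was 0.77, and against the CA array of plate 5 it was 0.67. DUSP5 shows the same array low, at 9.24 beside 12.25 and 12.26 in CA and 12.01 to 12.92 in MD, and its 1.12 (SE 0.73) was 0.12 without that array.

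Of 24 ATF4 and CHOP genes, which respond to amino acid shortage and misfolded protein, 2 were higher and 0 lower at p below 0.05 (median 0.28), and 19 lay above 0. The median was 0.08 without the CA array of plate 1, 0.12 without MD replicate 3, 0.13 against the CA array of plate 5 and 0.11 with NEC in place of CA. The higher count was 7 without MD replicate 1, 4 without the CA array of plate 5 and 1 with the plate as a replicate block. DDIT3, also called CHOP, read 5.30, 5.41 and 5.52 in CA and 6.24, 6.00 and 6.98 in MD (1.00, SE 0.30), and GDF15 differed by 0.75 (SE 0.35, 0.32 without the CA array of plate 1). Of 22 endoplasmic reticulum chaperones and genes of the XBP1 branch, 0 were higher and 2 lower (median −0.25). Without the CA array of plate 1 the median was −0.41 with 6 lower. It was −0.17 with 1 lower without MD replicate 1, and −0.18 with 1 lower without the CA array of plate 6. XBP1, the transcription factor of that branch, read 11.68, 12.67 and 12.43 against 11.08, 11.64 and 11.65 (−0.81, SE 0.26), and the chaperone HYOU1 differed by −0.65 (SE 0.24). Of 24 targets of NRF2, which answers oxidants, 0 were higher and 0 lower (median 0.01), with list means of 14.9 to 15.2 in CA, close to the ceiling for some. Of 15 heat shock genes 0 differed at p below 0.05 (median 0.09). Of 13 metallothioneins and zinc transporters 1 was higher, MT2A (0.71, SE 0.24). These counts come from limma at unadjusted p below 0.05, where 2.9% of all coding genes were higher and 2.88% lower. A count of 1 or 2 in such lists therefore says little about the list.

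A few genes of the airway surface differed, in both directions. MUC5B, a gel-forming mucin, read 15.62, 15.89 and 16.15 in CA and 14.16, 14.42 and 14.90 in MD (−1.39, SE 0.32, 2.63-fold lower, limma adjusted p = 0.581), and −1.40 against the CA array of plate 5. MUC13, a membrane mucin, differed by −0.57 (SE 0.20) and the protease inhibitor SLPI by −0.60 (SE 0.25), with MUC16 higher by 0.50 (SE 0.21). Of 22 mucin and airway secretory genes 3 were lower and 1 higher at p below 0.05 (median −0.11, and 0.11 with NEC in place of CA). With the plate as a replicate block 4 were lower, 2 of them among the 3, and 0 higher. MUC5AC, picked as the other main gel-forming mucin of airways, differed by −0.09 (SE 0.26). BPIFA1, an antimicrobial protein of the airways chosen after its values were seen, read 4.70, 8.12 and 8.56 in CA and 5.42, 5.34 and 5.78 in MD. The CA array of plate 1 lay below all MD arrays and the other CA arrays lay above them, so its −1.62 (SE 0.90) became −2.83 without that array and −0.90 without the CA array of plate 6. SLC4A4, the sodium bicarbonate cotransporter, read 9.60, 10.65 and 10.37 against 8.86, 8.97 and 8.95 (−1.28, SE 0.28, 2.43-fold lower). It was the lower member at p below 0.05 among 17 genes of bicarbonate, proton and pH transport, with SLC4A5 higher (0.43, SE 0.20). CLDN2, a claudin that forms cation pores, read 14.76, 15.06 and 14.71 against 13.57, 14.05 and 14.08 (−0.94, SE 0.21), and the other 14 tight junction genes did not reach p below 0.05. As 2.9% of all coding genes were higher and 2.88% lower at that p, single calls in such lists say little about the lists.

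Enzymes that handle amines differed in both directions. Of 18 measured genes of methylamine and amine metabolism, 3 were lower and 2 higher at p below 0.05 (median −0.06, and −0.23 without MD replicate 3). With the plate as a replicate block 1 was lower and 0 higher, and without MD replicate 2 both counts were 0. The shares over all coding genes were 2.88% lower and 2.9% higher. FMO4 (−0.65, SE 0.25) and FMO5 (−0.57, SE 0.25) are flavin monooxygenases, a family that oxidises amines, and the monoamine oxidase MAOA differed by −0.67 (SE 0.29). FMO4 was 0.10 against NEC. DDAH2, a gene of the dimethylarginine dimethylaminohydrolase family, differed by 0.58 (SE 0.27, 0.36 without the CA array of plate 1). The related DDAH1 (−0.26, SE 0.23, −0.44 without the CA array of plate 1 and −0.11 without that of plate 5) and DMGDH (−0.08, SE 0.26) were chosen after their values were seen and overlapped between the groups.

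Other genes named by rule for a lower signal included receptors and channels. OR51E2 and OR51E1 are neighbouring olfactory receptor genes on chromosome 11, between 4643982 and 4697853, that are also expressed outside the nose. OR51E2 read 6.47, 6.54 and 6.35 in CA and 4.13, 4.67 and 5.44 in MD (−1.71, SE 0.37), and OR51E1 read 8.54, 8.11 and 8.19 against 6.87, 7.0 and 7.0 (−1.32, SE 0.30). Neither gene had overlapping groups. The gap junction protein GJB1 read 8.88, 9.58 and 9.48 against 7.42, 7.88 and 8.19 (−1.48, SE 0.38). The neurotrophin receptor NTRK3 differed by −1.50 (SE 0.37), the phosphate transporter SLC17A4 by −1.57 (SE 0.34) and the glutathione transferase GSTA2 by −1.34 (SE 0.32). CD38, which hydrolyses NAD, read 9.62, 10.49 and 10.61 against 8.51, 9.06 and 9.23 (−1.31, SE 0.29).

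IFI6, an interferon-induced mitochondrial protein, read 10.04, 12.42 and 10.30 in CA and 9.83, 9.79 and 8.96 in MD. The CA array of plate 5 was the highest of the 6, so the difference of −1.39 (SE 0.65) was −2.89 on plate 5 and −0.64 without that array. NEC averaged 8.22, and MD minus NEC was 1.31, with the direction turned. Among 27 interferon-stimulated genes 4 were lower and 1 higher at p below 0.05, with a median of −0.09 that was 0.18 against NEC. The lower count was 1 without the CA array of plate 5, 1 without MD replicate 1 and 7 without the CA array of plate 1. Of these genes IFI27 (−1.05, SE 0.28) was 0.05 against NEC. At p below 0.05, 2.9% of all coding genes were higher and 2.88% lower. The clock genes PER3 (0.99, SE 0.27), CRY2 (0.48, SE 0.19), TEF (0.57, SE 0.24) and NR1D2 (0.56, SE 0.25, 0.35 without MD replicate 3) were higher at p below 0.05, of 17 measured, and 0 were lower. With the plate as a replicate block 1 was higher, PER3. PER3 read 6.67, 6.82 and 6.74 in CA and 8.23, 7.16 and 7.82 in MD. CRY2 and TEF lay near or below the negative controls.

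Clusters of other genes met the criteria of the study too, and many name short RNA copies. The U6 copies RNU6-1183P (1.35, SE 0.37, 0.87 without MD replicate 3), RNU6-1332P (1.25, SE 0.36) and RNU6-684P (1.27, SE 0.40, 0.81 without the CA array of plate 1), the U1 copy RNU1-32P (1.34, SE 0.45) and the pseudogene RDXP2 (1.61, SE 0.57, −0.05 against the NEC array of plate 5 and 0.94 without the CA array of plate 1) were the upward ones named by rule. Such copies share sequence with many others, so which copy was read is uncertain. Of 67 snRNA clusters 11 were higher and 1 lower at p below 0.05, with a median of 0.23, beside 2.81% and 3.37% of all clusters. That class held 2 clusters higher at the study criteria, so the named U6 and U1 copies are not all in it. Of 10844 pseudogene clusters 492 were higher and 271 lower at p below 0.05, with a median of 0.04. Named by rule for a lower signal were the argininosuccinate synthase pseudogene ASS1P10 (−1.16, SE 0.23) and the HSP90B1 pseudogene HSP90B2P (−1.11, SE 0.28). The long non-coding RNA LINC00473 (−1.11, SE 0.26) and RN7SKP239 (−1.07, SE 0.31, 0.12 against the NEC array of plate 5) were also named so. LINC00473 read 12.97, 12.62 and 13.11 in CA and 11.75, 11.69 and 11.95 in MD. A cluster annotated as MIR548AI had the largest difference of all these genes, −2.76 (SE 0.68), with CA at 12.64, 13.02 and 12.35 and MD at 11.79, 10.36 and 7.58. The MD arrays were far apart, and the difference was −1.59 without MD replicate 3. Its identifier places the cluster on chromosome 16 while the gene lies on chromosome 6, so its name is uncertain.

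The 89 coding genes at the criteria of the study were set against the CA array of plate 5 alone. They were picked in this same comparison and share its MD arrays. Kept directions and p-values below therefore follow largely from the choice and are no independent support. Of 38 higher genes 17 stayed above 2-fold, and of 51 lower ones 38 stayed below, with median differences of 0.98 and −1.21. The exception in direction was MAP10 (−1.14, 0.36 on plate 5, −1.89 without that CA array and −0.40 without the CA array of plate 6), chosen after its values were seen. With the exposure plate as a replicate block in limma, 0 clusters passed the adjusted p, and 32 of the 38 and 47 of the 51 kept an unadjusted p below 0.05. Without the CA array of plate 1 these numbers were 32 and 49.

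Of 110 genes described here with an unadjusted p below 0.05, 34 had a p of 0.05 or more with the replicate block. In cholesterol synthesis the blocked differences were 0.51 for NSDHL, 0.57 for SC5D, 0.74 for MVD and 0.59 for SQLE, with −0.53 for ABCA1. Among p53 targets they were 0.67 for GADD45A, 0.79 for PMAIP1 and 0.57 for TP53INP1. In the cell cycle they were 0.33 for BUB1, 0.44 for BUB1B and 0.39 for NUF2. Lower plasma protein genes included C3 at −0.85 and CFI at −0.56. For signalling and stress genes the block gave 0.63 for DUSP6, 0.31 for HBEGF, 0.59 for GDF15, 0.54 for S100A6 and −0.72 for IL33. For clock genes it gave 0.49 for CRY2, 0.45 for TEF and 0.44 for NR1D2. Enzymes and transporters stood at 0.47 for ALDH3A1, 0.37 for DDAH2, −0.36 for FMO5, −0.76 for MAOA and 0.29 for SLC4A5. At the airway surface the values were 0.44 for MUC16 and −0.47 for SLPI. For the remaining genes they were −0.08 for MAP10, −0.44 for the cell adhesion gene NRCAM, 0.97 for RDXP2, 0.69 for RNU1-32P, 0.91 for RNU6-1332P and 0.96 for RNU6-684P.

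**Figure D4:**
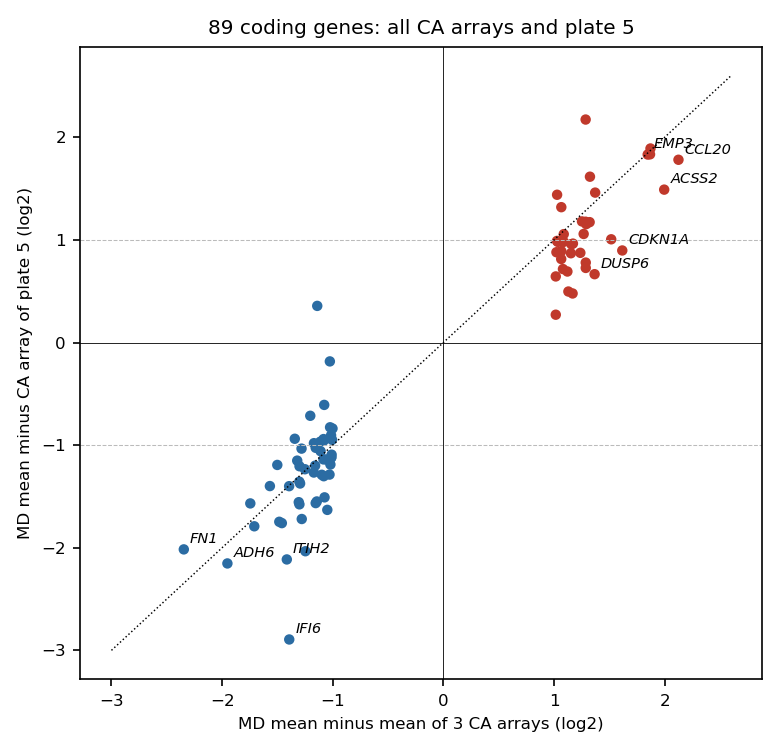
Difference of the MD mean from the mean of 3 CA arrays (horizontal axis, log2) and from the CA array of plate 5 (vertical axis, log2) for the 89 coding genes at the criteria of the study, 38 higher (red) and 51 lower (blue). The dotted line marks equal values and the dashed lines 2-fold; FN1 and ADH6 lie near the line, IFI6 lies far below it at −2.89, and CDKN1A and DUSP6 lie below 1 on plate 5. The genes were picked by the difference on the horizontal axis, so equal directions follow largely from the choice.

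The same CA arrays served LD, MD and HD, so the values of the concentrations are given side by side. By the labels all LD arrays lay on plate 1 and all HD arrays on plate 6. Differences between concentrations, HD minus MD among them, therefore cannot be told apart from differences between plates. For CCL20 the CA array of plate 1, the plate of LD, was the lowest CA array, so the sign of its LD value depends on the pooled CA arrays. FN1 differed from CA by 0.06 in LD, −2.35 in MD and −3.05 in HD, and ADH6 by −0.85, −1.95 and −2.52. MUC5B differed by −0.12, −1.39 and −1.31, and SLC4A4 by −1.05, −1.28 and −1.87. EMP3 differed by 1.16, 1.85 and 2.51, and CCL20 by −1.01, 2.12 and 3.15. In the tested difference HD minus MD, 0 clusters passed an adjusted p of 0.05 in limma (3049 higher and 2951 lower at an unadjusted p below 0.05). The interleukin 33 receptor IL1RL1 was flat in MD, at −0.16 (SE 0.44) below the negative controls, and 2.40 in HD, with HD minus MD at 2.56 (SE 0.44, limma adjusted p = 0.700). Its ligand IL33, an alarmin, read 10.88, 11.01 and 10.95 in CA and 10.04, 9.93 and 10.18 in MD (−0.90, SE 0.27). DDIT3 differed by 0.71, 1.00 and 2.59 (HD minus MD 1.59, SE 0.30, limma adjusted p = 0.789).

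Genes that the study names, or that led in HD, were chosen on these samples and are no independent evidence. DCLK1, a doublecortin-like kinase, read 4.2, 4.60 and 4.40 in CA and 5.54, 5.48 and 5.65 in MD. The CA arrays lay below the negative controls and every MD array above them. The difference was 1.16 (SE 0.30), 0.96 against the CA array of plate 5, 0.74 in LD and 1.96 in HD. HMGA1, an architectural protein of chromatin, read 9.54, 9.80 and 9.71 against 10.06, 10.24 and 10.94 (0.73, SE 0.24, and 0.47 without MD replicate 3). EMP1, an epithelial membrane protein, read 4.68, 4.88 and 5.2 in CA and 5.28, 5.55 and 5.6 in MD. Its difference of 0.55 (SE 0.28) did not reach p below 0.05. The CA arrays lay near the negative controls, so its size is uncertain. The study, by contrast, reports EMP1 as significantly higher on each platform, apart from HD on the arrays. The reason for this mismatch at MD was not tested. DHRS9, a retinol dehydrogenase, read 5.53, 4.45 and 6.03 against 5.85, 6.45 and 7.56, with overlapping groups (1.29, SE 0.47, 0.82 without MD replicate 3). NRCAM read 12.06, 11.16 and 11.26 in CA and 10.51, 10.57 and 10.63 in MD (−0.92, SE 0.28, and −0.59 against the CA array of plate 5).

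**Figure D5:**
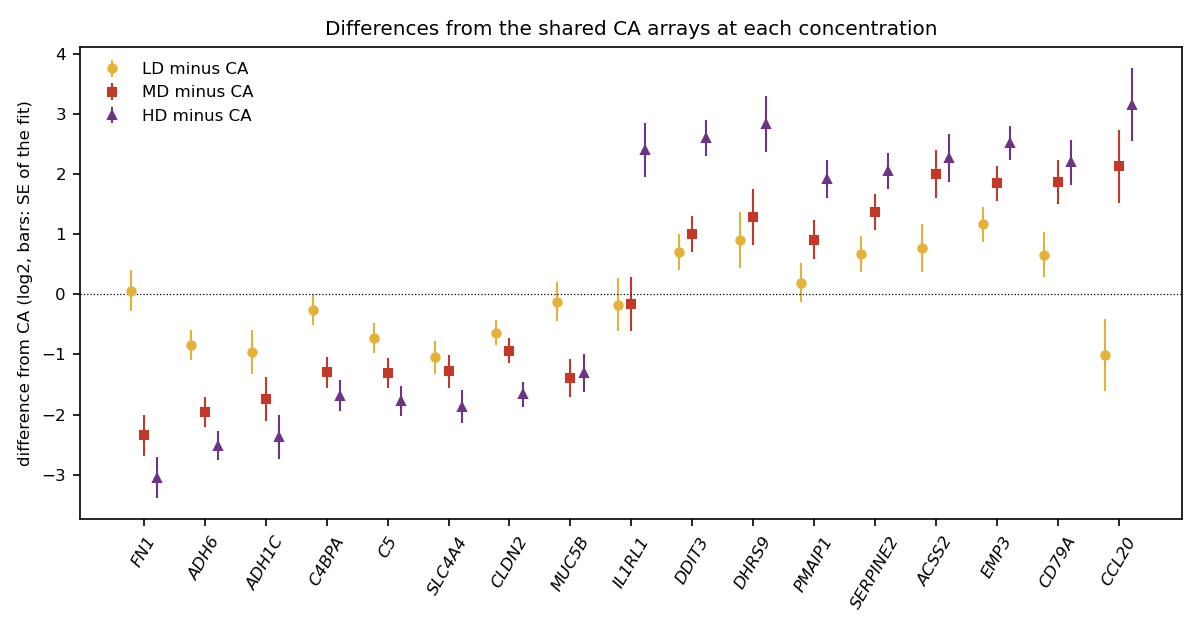
Differences of LD, MD and HD from the shared CA arrays (vertical axis, log2) for 17 genes, with bars giving the SE of the fit. FN1 lies at 0.06, −2.35 and −3.05 in LD, MD and HD, and IL1RL1 at −0.17, −0.16 and 2.40.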

How the data were processed

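Labelled RNA of A549 pools was hybridised to Clariom D arrays, and the deposited values are log2 signals that the authors made with RMA in the Transcriptome Analysis Console. RMA subtracts background, quantile normalizes and summarises probes, so depth has no meaning here and the number of arrays limits precision. Of 138745 clusters 2995 controls were left out. Symbols came from the platform annotation, updated through RefSeq, with 36176 clusters holding 1 symbol and 98455 none, and the brightest cluster stands for a gene. MD minus CA was fitted with limma 3.58.1 in R 4.3.3 on all 15 arrays, which share 1 estimate of spread, with Benjamini-Hochberg adjustment. On simulated data limma called 5 of 50 clusters changed 2-fold and 44 of 50 changed 4-fold. Genes were named by rule: the 15 largest differences each way among protein-coding genes and 5 among others, at the study criteria with non-overlapping arrays above the negative controls by 1, up to 4 members of smallest p of each list, and the leading HD genes and those the study named. The members and lists were chosen with earlier results of these data known. Same-plate CA and NEC arrays deviated together, with correlations of 0.286, 0.119 and 0.231, and the plate was tried as a replicate block. In CA and NEC the replicate number follows the plate, so these correlations cannot be assigned to the plate. Bright coding clusters also rose with the replicate number within MD, all on plate 5, at 10.63, 10.84 and 11.05. The described plate has fewer wells than the pools need, so arrays of equal number may come from several plates. The study left MD replicate 3 out of its sequencing data. It was kept here.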

Additional observations from a re-analysis of the deposited data

How the results depend on the processing

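At an adjusted p of 0.05, limma with an intensity trend called 1 cluster (ADH6), NEC in place of CA 20, CA and NEC together 16 and each other setting 0. The study criteria gave 646 higher and 864 lower with the exposure plate as replicate block, 180 and 274 with CA and NEC together, 155 and 249 with an ordinary 2-group model, 366 and 641 with NEC, 227 and 248 in clusters above the negative controls (2042 and 2103 at p below 0.05 alone), and 476 to 696 and 586 to 956 with 1 array left out. The highest counts came without the CA array of plate 5. The cause of these shifts was not tested.

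List medians moved with NEC to −0.744 (complement), −0.187 (dehydrogenases), 0.808 (S100), 0.520 (protease inhibitors), 0.108 (mucins), 0.175 (interferon) and 0.059 (methylamine). Against the NEC array of plate 5 they were 0.382 (sterol sensing), −0.005 (dehydrogenases), 0.822 (S100), 0.363 (protease inhibitors), 0.303 (interferon) and 0.198 (NRF2). With 1 array left out they ranged from 0.032 to 0.332 (sterol sensing), −0.727 to −0.329 (complement), 0.111 to 0.572 (S100) and −0.227 to −0.009 (methylamine). Further ranges were 0.167 to 0.555 (p53), 0.171 to 0.579 (histones), 0.08 to 0.388 (ATF4), −0.412 to −0.169 (endoplasmic reticulum), 0.026 to 0.306 (ERK) and −0.02 to 0.279 (clock). The plate block left 3 of 9 histone, 3 of 6 p53, 4 of 7 S100 and 6 of 10 cholesterol genes at p below 0.05.

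Directions turned as follows. With CA and NEC together, the difference was MUC5AC 0.283. With NEC, the differences were DDAH1 0.009, FMO4 0.104, IFI27 0.047, IFI6 1.309, MAP10 0.036, MUC5AC 0.654. With the replicate block, the difference was IL1RL1 0.083. Against the CA array of plate 5, the differences were BUB1 −0.001, IL1RL1 0.188, MAP10 0.357. Against the NEC array of plate 5, the differences were ABCA1 0.022, ADH1A 0.345, F2 0.172, FMO4 0.05, FMO5 0.098, IFI27 0.17, IFI6 2.058, IL1RL1 0.095, MAP10 0.664, MUC5AC 0.368, RDXP2 −0.051, RN7SKP239 0.12. With 1 array left out, DMGDH ranged from −0.378 to 0.177, IL1RL1 from −0.47 to 0.041, MUC5AC from −0.235 to 0.055 and SREBF1 from −0.415 to 0.036.

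Signals near the negative controls or the ceiling limit what differences can be read.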
